A study of Mus musculus with 4 samples.

Results

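The NKG2D ligands are a small group of cell surface proteins, distantly related to MHC class I, that natural killer (NK) cells and some T cells detect through the activating receptor NKG2D. Cells that are infected, stressed or transformed display them, and healthy cells mostly do not. In mice the group comprises the RAE-1 proteins encoded by the Raet1 genes, the H60 proteins and MULT1, which is encoded by Ulbp1. BALB/c mice, from which the mammary carcinoma line 4T1 came, are known for expressing H60a and for carrying Raet1a, Raet1b and Raet1c, whereas C57BL/6 mice are known for Raet1d and Raet1e and for lacking a functional H60a.

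Transcripts of these ligands were examined in 4T1-S and 4T1-A, a pair of sub-lines that share 4T1 as parental line. The series title describes 4T1-S as highly immunogenic, and the comparison asks how the sub-lines differ in RNA. Each sub-line was measured on 2 one-colour Agilent arrays of Cy3-labelled total RNA, and the labels give no treatment, no derivation of the sub-lines and no statement that the 2 arrays came from separate cultures, so the spread between them, on which every p-value here rests, may be technical. The file headers place all 4 arrays on 1 slide, with 4T1-S and 4T1-A each at their own positions, so slide position and sub-line cannot be told apart. The list named 7 ligand genes, Ulbp1, H60a, Raet1a, Raet1b, Raet1c, Raet1d and Raet1e, chosen by family with the processed intensities of 4T1-S against 4T1-A on these arrays already seen. Their spots were found by gene name or accession, and H60, the symbol in the array design, was taken as the older name of H60a. This gave 6 probes for 4 genes, Ulbp1, H60a, Raet1e and Raet1a, among 41174 probes under 27670 gene names. Raet1b, Raet1c and Raet1d had 0 probes under these names or accessions. Another 2 probes named Rae1 belong to an unrelated messenger RNA export factor and were not counted.

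Between 54.9 and 59.2 percent of the spots on an array were well above background, and the precision of each value is limited by there being 2 arrays per sub-line. All 6 markers of mammary epithelium (Epcam, Cdh1, Krt8, Krt18, Krt19 and Krt14) were well above background in both sub-lines. Their summed level was 228 and 192 times the array's 75th percentile in 4T1-S, against 244 and 256 in 4T1-A. Krt8 and Krt18, with means of 128 and 76.2 in 4T1-S, made up most of this sum. The summed level of 8 leukocyte markers was 0.646 and 0.743 in 4T1-S, against 0.514 and 0.535 in 4T1-A, with Itgam and Adgre1 not well above background on any array and Ptprc on 1 array of 4T1-S alone. Of the 6 epithelial markers, 4 were lower in 4T1-S by limma (Epcam, Cdh1, Krt19 and Krt14) and 2 did not pass (Krt8 and Krt18). Among all probes tested, 2.37 percent passed as lower and 2.21 percent as higher. Epcam, a surface protein of epithelium, read 0.181 and 0.177 in 4T1-S, against 2.12 and 2.86 in 4T1-A. The 4 fibroblast markers summed to 1.22 and 1.23 in 4T1-S, against 0.592 and 0.795 in 4T1-A. Of these, Col1a1 passed as higher in 4T1-S (limma adjusted p = 0.00777), Pdgfra and Col1a2 did not pass, and Dcn was not tested. Other probes of Col1a1 differed by 0.16 to 0.64 on the log2 scale. The 3 endothelial markers were not well above background on any array. The part of these markers in the ligand values was not tested. In bulk RNA, fewer cells expressing a gene and less RNA per cell cannot be told apart.

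Levels below are the processed intensity of a probe divided by the 75th percentile of its array, taken over all spots other than controls. Different probes bind with different strength. Apart from the marker sums above, which lean to the brightest probes, levels were therefore compared only within a probe. Of the 6 ligand probes, 5 were well above background on all 4 arrays, and on each of these 5 both 4T1-S arrays lay below both 4T1-A arrays. Among all 23669 probes tested, 18.7 percent showed that order. The ligands were chosen with this comparison already known, so the values that follow are a description and nothing is read from such counts.

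Ulbp1, the gene of the high-affinity ligand MULT1, had the widest separation. Its probe (A_51_P425847) read 0.424 and 0.563 in 4T1-S, against 1.51 and 1.88 in 4T1-A. The highest 4T1-S value lay 2.69-fold under the lowest 4T1-A value, and the groups did not overlap. On the log2 scale the difference between 4T1-S and 4T1-A was -1.79 ± 0.23 (SE, n = 2 arrays per sub-line), a level 3.45-fold lower in 4T1-S. The 2 arrays of 4T1-S differed from each other by 0.41 and those of 4T1-A by 0.31, on the same scale. Of the probes tested, 244 had a lower difference than Ulbp1. Before any scaling the intensity was 172 and 280 in 4T1-S, against 707 and 1083 in 4T1-A.

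H60a encodes a transmembrane ligand that is also a minor histocompatibility antigen between BALB and C57BL/6 mice, and 2 probes measured it. The first (A_51_P335146) read 15.1 and 14.2 in 4T1-S, against 25.5 and 25.3 in 4T1-A. The second (A_51_P187898) read 0.991 and 0.946 in 4T1-S, against 2.06 and 1.64 in 4T1-A. Both probes therefore placed 4T1-S under 4T1-A without overlap, and by a similar amount. The log2 difference was -0.79 ± 0.19 for the first probe, 1.73-fold lower, and -0.93 ± 0.20 for the second, 1.90-fold lower (SE, n = 2 arrays per sub-line). Replicate arrays of the first probe differed by 0.09 in 4T1-S and by 0.01 in 4T1-A. Of the probes tested, 968 had a lower difference than the first probe and 736 a lower one than the second.

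Raet1e encodes RAE-1 epsilon, and its probe (A_52_P10063) read 0.137 and 0.111 in 4T1-S, against 0.257 and 0.304 in 4T1-A. BALB/c mice, from which 4T1 came, are known for carrying Raet1a, Raet1b and Raet1c rather than Raet1e. Binding of this probe to RNA of those genes was not tested. Its values may therefore not be those of Raet1e RNA or of a separate ligand. The groups did not overlap, and the log2 difference was -1.18 ± 0.21 (SE, n = 2 arrays per sub-line), or 2.27-fold lower in 4T1-S. The intensities behind these values were low, at 55.5 and 55.0 in 4T1-S and 120.0 and 175 in 4T1-A. With normexp, which handles background in another way, the difference was -0.53.

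The 2 probes of Raet1a, which encodes RAE-1 alpha, did not give the same picture. The brighter one (A_51_P256766) read 0.116 and 0.123 in 4T1-S, against 0.203 and 0.302 in 4T1-A. Its log2 difference was -1.06 ± 0.24 (SE, n = 2 arrays per sub-line), 2.08-fold lower in 4T1-S, and the 4T1-A arrays differed from each other by 0.57. With normexp it was -0.38. The other probe (A_51_P256771) read 0.0530 and 0.0347 in 4T1-S, against 0.0209 and 0.0378 in 4T1-A. None of its 4 values was well above background and the groups overlapped, so it gives no fold. Taken as the mean of both probes, Raet1a differed by -0.22 ± 0.26 (SE), a difference smaller than its SE.

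**Figure D1:**
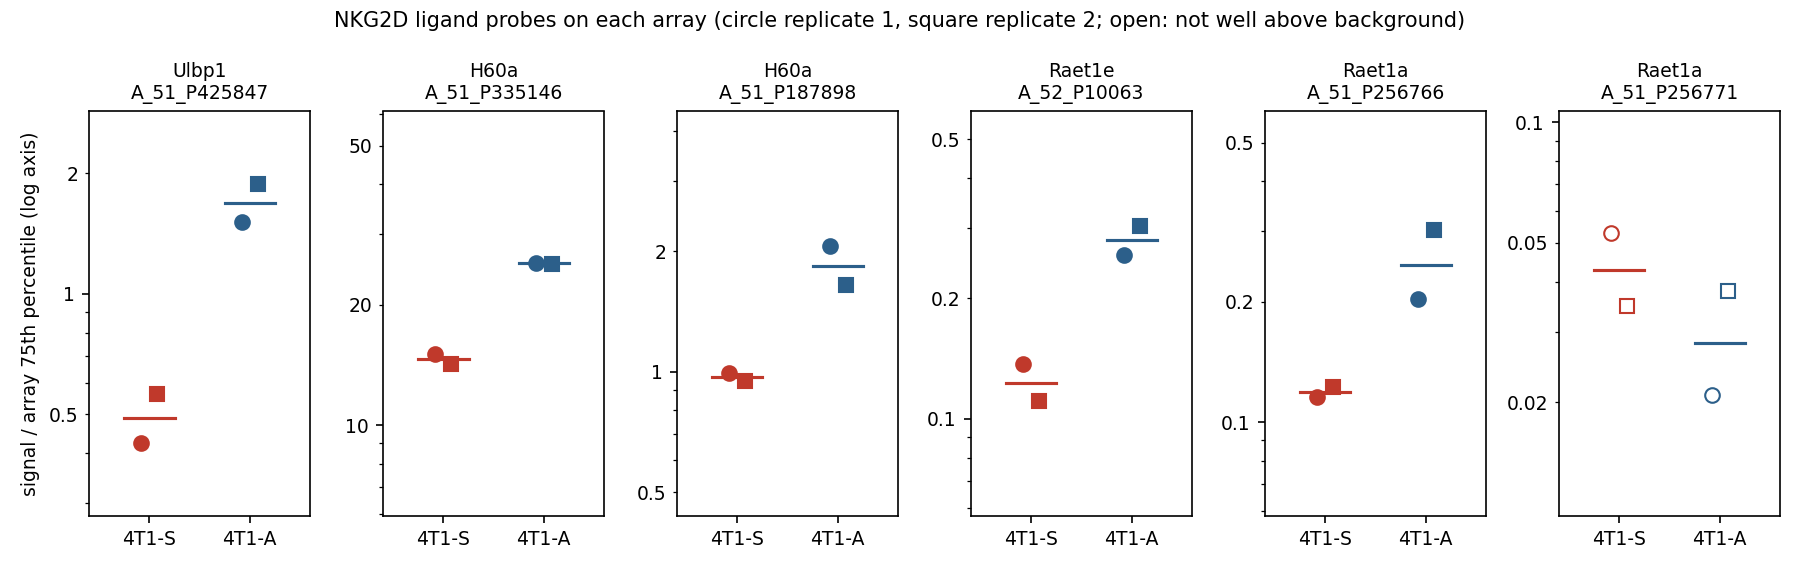
Level of each ligand probe on each array, as processed intensity over the array's 75th percentile on a log axis that spans the same ratio in every panel, with 4T1-S left of 4T1-A. Circles are replicate 1, squares replicate 2, bars the mean of the log2 values, and open symbols were not well above background. The 4T1-S arrays lie below the 4T1-A arrays for 5 probes and overlap with them for the dim Raet1a probe.

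The scanner software attaches an error to each spot, from its own error model. For the 5 ligand probes well above background this error was between 8.49 and 15.2 percent of the spot's intensity. For the dim Raet1a probe it was between 27.3 and 59.1 percent. The error covers the spot alone and holds no variation between arrays or cultures, so it is no measure of the spread behind a difference between the sub-lines.

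Because the ligands were chosen with this comparison known, their differences are given with their SE and without a limma call. In the limma fit across all probes, 2.37 percent passed at an adjusted p under 0.05 as lower in 4T1-S and 4.58 percent in either direction. The median difference was -1.06 over the 5 ligand probes tested, against 0.11 over all probes tested, a description of values known when the ligands were chosen. Scaling to the median moved the median of all probes to -0.18, and the split of all calls moved with it. As reported, 523 probes were higher and 562 lower. Scaling to the median gave 224 higher and 1162 lower probes. Quantile normalization gave 310 higher and 581 lower, and leaving the arrays unscaled gave 179 higher and 657 lower.

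**Figure D2:**
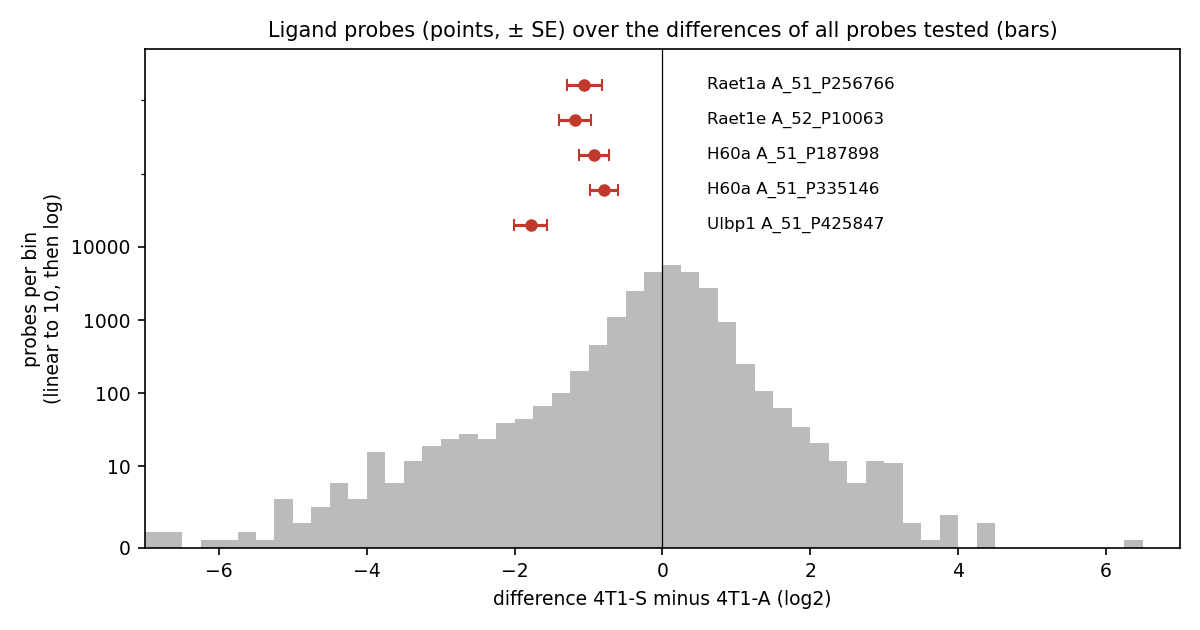
Log2 difference, 4T1-S minus 4T1-A, of the 5 ligand probes tested (red points with SE, set at arbitrary heights) above the number of all 23669 probes per bin of 0.25 (grey bars, axis linear to 10 and logarithmic beyond). The ligand probes lie between -1.79 and -0.79, left of the median of all probes at 0.11.

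**Figure D3:**
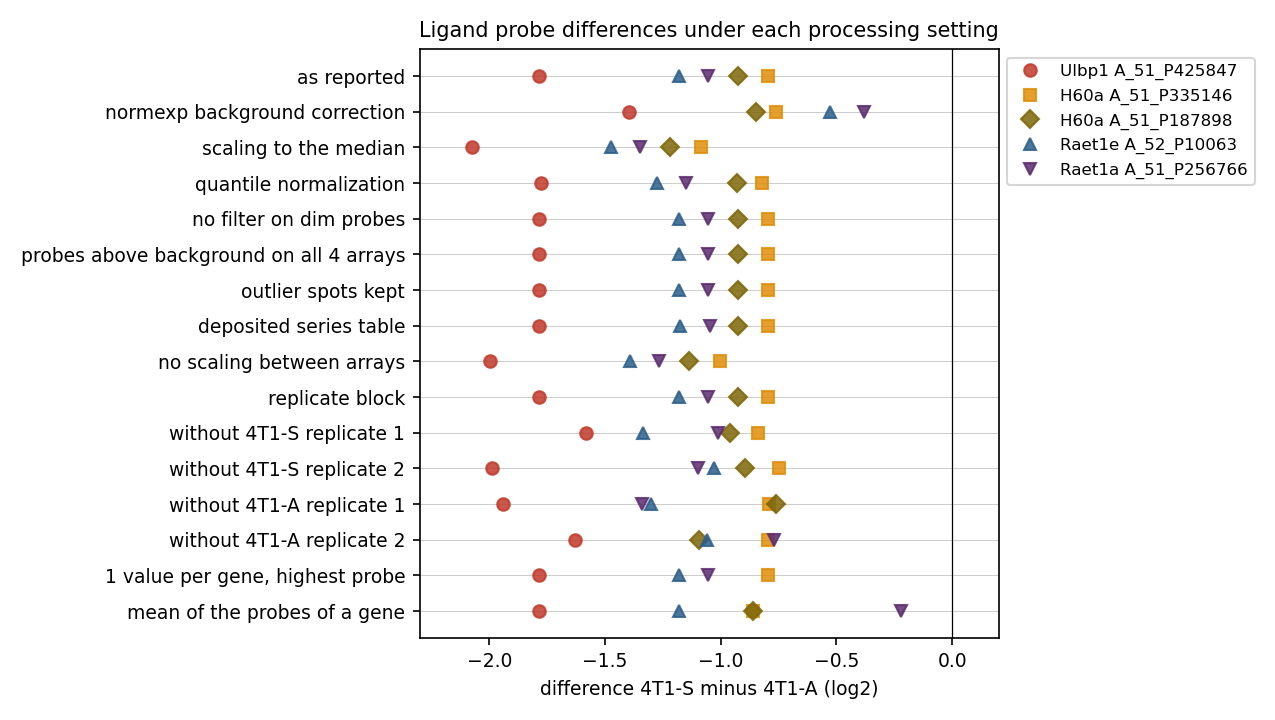
Log2 difference, 4T1-S minus 4T1-A, of the same 5 probes under each processing setting, 1 row per setting and 1 symbol per probe. All points lie below 0, from -2.08 for Ulbp1 with scaling to the median to -0.22 for Raet1a with the mean of its probes. That last value is smaller than its SE of 0.26, and SEs are not drawn.

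The ligands differed in the size of the gap. By the root mean square difference of mean-centred log2 values over the 4 arrays, the 2 probes of H60a were 0.132 apart, and Raet1e and the brighter Raet1a probe 0.192 apart. Ulbp1 lay between 0.393 and 0.538 from the other 4 probes above background. By the same measure the genes most like Ulbp1, among 18675 named probes well above background on all arrays, were Plet1, a surface protein of epithelial progenitors (0.0476), Sema7a, a membrane-anchored semaphorin (0.0691), Casp4, an inflammatory caspase (0.0858), Gpa33, a surface antigen of intestinal epithelium (0.0907), and Sesn3, a stress-responsive sestrin (0.0967). Plet1 read 3.50 and 4.49 in 4T1-S, against 11.7 and 14.2 in 4T1-A, with a difference of -1.70. Casp4 read 0.442 and 0.537 in 4T1-S, against 1.65 and 2.09 in 4T1-A. The Sesn3 probe differed by -1.78, and the mean of all Sesn3 probes by -0.90. Plet1, Sema7a, Casp4 and Sesn3 lie on chromosome 9 and Gpa33 on chromosome 1, and a part of location in the likeness was not tested. These genes were picked for the likeness, so it is a description over 4 arrays and no test applies.

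Ulbp1, Raet1e and Raet1d lie on mouse chromosome 10, and their promoters are shown because that of Raet1d closely matches one of the Raet1e promoters. Raet1d had 0 probes, and H60a and Raet1a, which were measured, had no promoter to show. A part of promoter sequence in the ligand differences was not tested. The windows are 300 bases around each start, most of them upstream, from RefSeq on GRCm38.p6, the C57BL/6J genome and not that of BALB/c. Of the 7 ligand genes, 3 matched this table, Raet1e with 2 starts. Capitals mark a CCAAT box (CCAAT), a GC box (GGGCGG) or the short core of an E2F site (TTCCCGC in its first form, then TTCGCGC as another, TTGCCGC as the third and lastly TTGGCGC), searched on both strands.
Ulbp1, chr10:7473428-7473727, minus strand: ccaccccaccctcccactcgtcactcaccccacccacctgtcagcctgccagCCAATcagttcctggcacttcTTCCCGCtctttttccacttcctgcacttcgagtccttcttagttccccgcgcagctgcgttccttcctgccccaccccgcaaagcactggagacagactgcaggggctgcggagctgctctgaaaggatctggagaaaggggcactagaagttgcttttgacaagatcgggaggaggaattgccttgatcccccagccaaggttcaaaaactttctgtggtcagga
Raet1e, first start, chr10:22158319-22158618, plus strand: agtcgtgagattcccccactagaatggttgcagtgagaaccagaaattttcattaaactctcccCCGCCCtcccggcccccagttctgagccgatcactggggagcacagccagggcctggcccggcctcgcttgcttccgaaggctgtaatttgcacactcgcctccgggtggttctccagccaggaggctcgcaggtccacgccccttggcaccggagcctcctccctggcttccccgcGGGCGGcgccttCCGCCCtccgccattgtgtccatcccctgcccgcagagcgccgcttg
Raet1e, second start, chr10:22173247-22173546, plus strand: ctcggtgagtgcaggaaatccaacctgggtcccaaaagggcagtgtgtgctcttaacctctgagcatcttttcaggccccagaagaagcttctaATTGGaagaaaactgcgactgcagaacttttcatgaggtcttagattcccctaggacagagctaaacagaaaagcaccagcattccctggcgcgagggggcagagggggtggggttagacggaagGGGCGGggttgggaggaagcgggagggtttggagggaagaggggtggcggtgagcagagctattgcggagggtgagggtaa
Raet1d, chr10:22361644-22361943, plus strand: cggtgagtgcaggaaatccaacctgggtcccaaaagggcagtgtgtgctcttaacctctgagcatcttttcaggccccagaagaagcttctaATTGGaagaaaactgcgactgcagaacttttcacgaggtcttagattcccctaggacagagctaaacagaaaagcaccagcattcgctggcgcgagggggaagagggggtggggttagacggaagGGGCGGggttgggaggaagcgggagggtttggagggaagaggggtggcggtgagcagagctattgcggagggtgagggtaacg

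The window at the second start of Raet1e and that of Raet1d were the same at 295 of 298 aligned bases, or 99.0 percent, and both held 1 CCAAT box and 1 GC box. The window at the first start of Raet1e matched these at 27.3 and 28.1 percent of aligned bases, and it held 3 GC boxes and no CCAAT box. The Ulbp1 window held 1 CCAAT box and 1 E2F core and no GC box, and it matched the Raet1 windows at no more than 31.9 percent of aligned bases. Of 32851 promoter windows of the same length, 37.4 percent held a CCAAT box, 35.7 percent a GC box and 9.6 percent an E2F core. The TATA box (TATAAA) and the ATF4 element (TGATGCAA) were in none of the 4 windows, and 13.6 and 0.9 percent of all windows held them. The windows had between 9 and 21 CpG dinucleotides, against a median of 7 over all windows.

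Genes beside the ligands on the chromosome mostly did not pass. For the 5 measured protein-coding genes on each side of Ulbp1 in RefSeq order, limma called 0 of 10 higher and 1 lower, and the median difference was -0.24. That gene was Pcmt1, a protein repair methyltransferase, which fell by 0.93 ± 0.20 (adjusted p = 0.0459), with a mean of 3.12 in 4T1-S and 5.94 in 4T1-A. It no longer passed when 4T1-S replicate 1 (adjusted p = 0.126), 4T1-S replicate 2 (0.196) or 4T1-A replicate 1 (0.118) was left out. The same held with quantile normalization (0.0550), with probes above background on all 4 arrays (0.0547) and with no filter on dim probes (0.119). Around the stretch of Raet1e, H60b and Raet1d, limma called 0 of 10 higher and 1 lower, with a median of 0.27. That gene was Slc18b1, a vesicular polyamine transporter. Its probe did not clear background on either 4T1-S array, so its level there was lower by at least 14.5-fold (measured means 0.0224 in 4T1-S and 0.834 in 4T1-A, limma adjusted p = 2.98e-05). For this bound the level in 4T1-S was set, per array, to the dimmest signal that still cleared background, or to the probe's own where higher. With normexp the log2 difference of Slc18b1 was -2.37, so the bound holds only for the processing as reported. Of all probes, 4.58 percent passed. Pcmt1 and Slc18b1 were named after their values were seen.

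**Figure D4:**
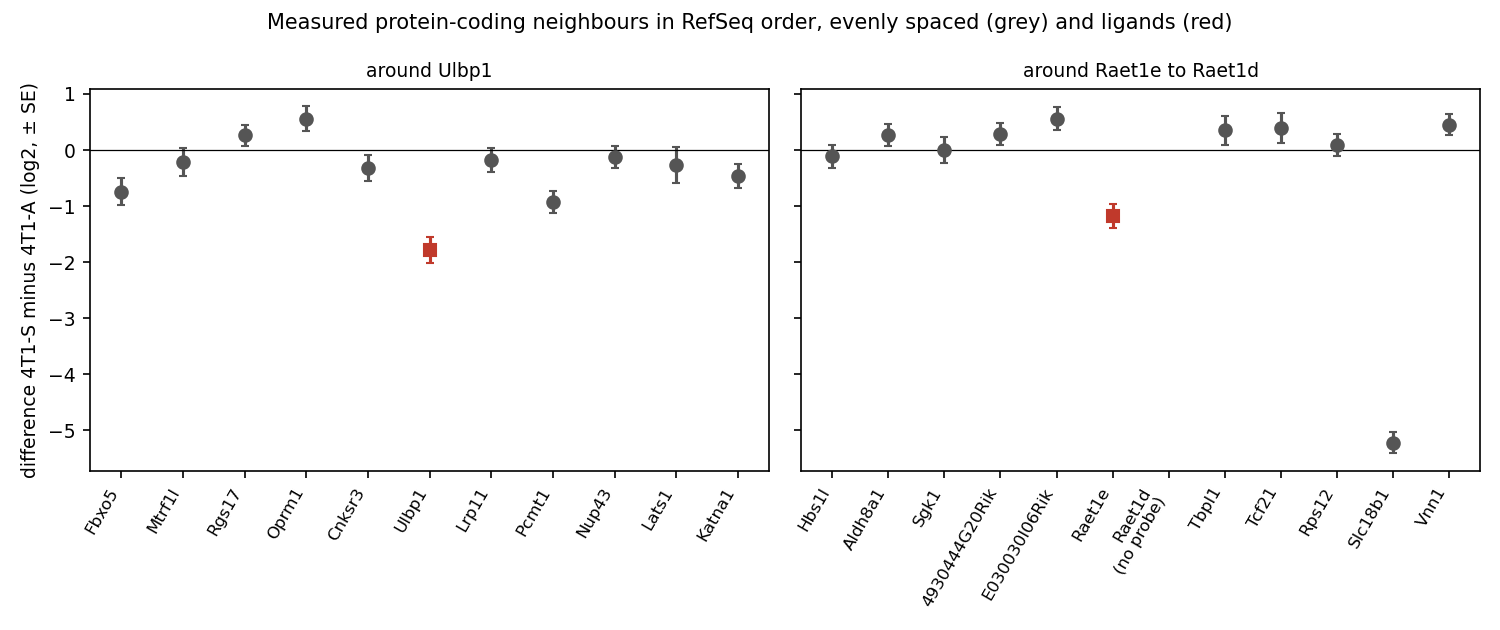
Log2 difference, 4T1-S minus 4T1-A, with SE, of the 5 nearest measured protein-coding genes on each side of Ulbp1 (left) and of the stretch from Raet1e to Raet1d (right), in chromosome order and evenly spaced. Ligands are red squares, and Slc18b1, at -5.22 as measured, did not clear background on the 4T1-S arrays.

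The genes through which the ligands act and are controlled were read from lists that hold no ligand measured here. NKG2D itself, encoded by Klrk1, and its signalling adaptors DAP10 and DAP12, encoded by Hcst and Tyrobp, are lymphocyte and myeloid genes. Klrk1 averaged 0.0136 in 4T1-S and 0.0127 in 4T1-A and stayed near background on all 4 arrays, as did Tyrobp. Hcst was above background on 1 array of 4T1-S and on none of 4T1-A, with means of 0.0563 in 4T1-S and 0.0531 in 4T1-A. The other H60 genes, H60b and H60c, had 0 probes by name.

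Of the 46 listed genes, 42 had a probe and 34 were tested, of which 3 rose, 1 fell and 30 did not pass. This is 11.8 percent of those tested, against 4.58 percent of all probes, and their median difference was 0.11, the same as over all probes. A listed gene counts by its probe with the highest mean, whereas the share of all probes counts every probe tested. Over all genes, each by its highest probe, the median difference was 0.13. The lists were chosen with earlier results of these data known, so nothing is read from such counts, here or per list below. For genes that release ligands from the surface, best known for the human ligands, limma called 0 of 6 and at an unadjusted p under 0.05 also 0, against 25.4 percent of all probes at that unadjusted threshold. Adam10 averaged 0.238 in 4T1-S and 0.306 in 4T1-A, a difference of -0.31 ± 0.29 (95% interval -1.0 to 0.38). Adam17 averaged 3.38 in 4T1-S and 2.74 in 4T1-A, a difference of 0.30 ± 0.20 (95% interval -0.17 to 0.77).

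For genes known to regulate ligand expression, limma called 0 of 16 tested. Before adjustment, 3 genes had a p under 0.05 as higher in 4T1-S and 2 as lower, where 17.5 percent of all probes did so as higher and 7.92 percent as lower. E2F factors drive Raet1 transcription in dividing mouse cells. E2f1 differed by -0.04 ± 0.24 (95% interval -0.59 to 0.52) and E2f3 by 0.04 ± 0.29 (-0.64 to 0.72). E2f2 read 12.3 and 11.7 in 4T1-S, against 7.74 and 7.85 in 4T1-A, a difference of 0.62 ± 0.19 that did not pass (limma adjusted p = 0.102). Other probes of E2f3 ranged from 0.11 to 1.25. Atf4, which activates the human ULBP1 gene, averaged 10.8 in 4T1-S and 7.94 in 4T1-A (0.42 ± 0.23). Hdac3, a histone deacetylase that represses human ULBP genes, differed by 0.12 ± 0.21. The DNA damage kinase Chek1 differed by -0.88 ± 0.24 and Trp53, which encodes p53, by 0.79 ± 0.23, and neither passed (limma adjusted p = 0.0845 and 0.0938). Pik3ca differed by -0.72 ± 0.19 and Sting1 by 0.58 ± 0.21, and neither passed (limma adjusted p = 0.0808 and 0.149). The other probe of Pik3ca differed by -0.11.

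Ligands of other activating or adhesion receptors of NK cells, listed together with the death receptor Fas, were higher where they passed. Of the 6 tested, 3 rose, 0 fell and 3 did not pass. Of all probes tested, 2.21 percent passed as higher and 4.58 percent in either direction. The list was chosen with earlier results of these data known, so nothing is read from this count. Icam1, the ligand of the integrin LFA-1, averaged 1.20 in 4T1-S and 0.406 in 4T1-A and rose by 1.55 ± 0.20. Nectin2, a ligand of the activating receptor DNAM-1, averaged 5.13 in 4T1-S and 2.07 in 4T1-A and rose by 1.31 ± 0.19. Fas, a death receptor engaged by killer lymphocytes, averaged 1.81 in 4T1-S and 0.731 in 4T1-A and rose by 1.30 ± 0.21. The other probe of each of these genes gave a smaller difference, of 1.20 for Icam1, 0.75 for Nectin2 and 0.52 for Fas. By limma the adjusted p was 0.00556 for Icam1, 0.0105 for Nectin2 and 0.0154 for Fas. Pvr, the other DNAM-1 ligand, averaged 23.4 in 4T1-S and 14.0 in 4T1-A, and its difference of 0.72 ± 0.30 did not pass (limma adjusted p = 0.192). Nectin2 (adjusted p = 0.0771) and Fas (0.108) no longer passed when 4T1-S replicate 2 was left out, nor Nectin2 when 4T1-S replicate 1 was (0.0514). With 4T1-A replicate 2 left out, Pvr passed (0.0413).

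Among ligands of inhibitory receptors of NK cells, 0 of 6 tested rose, 1 fell and 5 did not pass, against 2.37 percent of all probes passed as lower. The one that fell was Cdh1, which encodes E-cadherin, the ligand of KLRG1, with a mean of 2.21 in 4T1-S and 4.76 in 4T1-A (-1.11 ± 0.19, limma adjusted p = 0.0196). Cdh1, which is also on the epithelial marker list, no longer passed when 4T1-S replicate 1 (adjusted p = 0.104) or 4T1-S replicate 2 (0.0933) was left out. H2-T23, which encodes the Qa-1 chain that presents to NKG2A, averaged 13.4 in 4T1-S and 16.8 in 4T1-A (-0.33 ± 0.22, 95% interval -0.85 to 0.18). B2m, the light chain of MHC class I, differed by 0.04 ± 0.21 (-0.44 to 0.53) and Clec2d, a ligand of NKR-P1B, by 0.01 ± 0.20 (-0.45 to 0.47). These did not pass, and a miss of the threshold does not show equal levels.

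**Figure D5:**
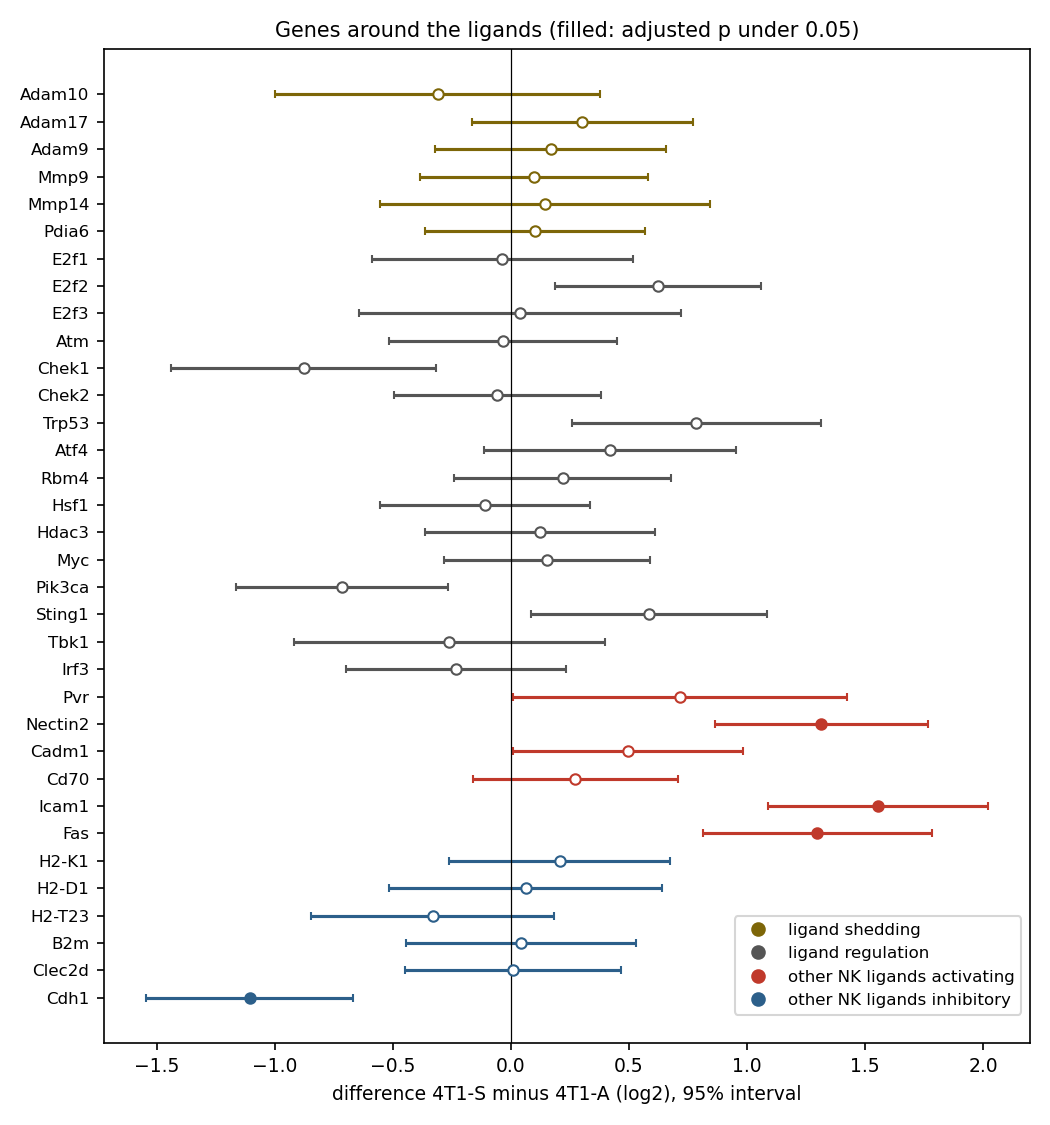
Log2 difference, 4T1-S minus 4T1-A, with its 95% interval for the 34 tested genes around the ligands, coloured by list. Filled points passed at an adjusted p under 0.05, which were Icam1, Nectin2 and Fas above 0 and Cdh1 below 0.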

How the data were processed

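The authors extracted spot intensity with Agilent Feature Extraction 9.1, per the submitters' processing notes. Per the file headers, the deposited processed intensity is background-subtracted and detrended and not scaled between arrays. Values in the authors' deposited series table are a ratio of that intensity to the array's 75th percentile, a scale found from its values. The file of 4T1-A replicate 1 holds intensity to 3 significant digits and the other files hold more. No genome build or probe sequence was used for the arrays, and binding of a Raet1 probe to other Raet1 transcripts was not tested.

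Log2 of the processed intensity minus the log2 of the array's 75th percentile was analysed. Spots flagged as outliers (5 to 9 an array) were dropped and spots of a probe averaged. A probe was tested where both arrays of either sub-line read well above background (23669 of 41174). Probes were named through RefSeq (GRCm38.p6), 22951 by accession and 9768 by symbol, and 8455 kept the file's name. The sub-lines were compared per probe with limma 3.58.1 in R 4.3.3 (reading files with the data.table package, version 1.17.8), 2-sided, with Benjamini-Hochberg adjustment at 0.05. The procedure was tested on simulated data. A listed gene counts by its probe with the highest mean.

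The members and lists were chosen with earlier results of these data known. Genes named are all ligand probes, a fixed set of listed genes, up to 3 rises and 3 falls per list, and the 5 genes nearest to Ulbp1. Chek1, Trp53, Pik3ca, Sting1 and Tyrobp were named after their values were seen. Alternatives were normexp (offset 50), scaling to the median, quantile normalization, no scaling (chosen after seeing the data), other filters, outlier spots kept, the series table as log2(ratio + 0.001), a replicate block, leaving out each array, and gene-level values.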

Additional observations from a re-analysis of the deposited data

How the results depend on the processing

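The differences of the 5 ligand probes well above background were below 0 under every alternative that gave them a value. The difference ranged from -2.08 to -1.39 for Ulbp1, -1.08 to -0.75 and -1.22 to -0.76 for the H60a probes, -1.47 to -0.53 for Raet1e and -1.35 to -0.22 for Raet1a. The -0.22 is the mean of both Raet1a probes, the dim one included, and is smaller than its SE of 0.26. The count of probes passing limma, 1085 as reported, was 542 with normexp, 302 with no filter on dim probes, 584 with probes above background on all 4 arrays, and between 450 and 2292 when 1 array was left out. Of the genes around the ligands, 4 passed as reported, 2 with no scaling between arrays and 0 with no filter, where 10 had an unadjusted p under 0.05, and between 1 and 6 when 1 array was left out. With a single array left in a sub-line, that array is assumed to vary like the other sub-line. Apart from the fewer or more probes tested under the filters, the cause was not tested. The labels number the replicates 1 and 2 in each sub-line, which does not pair them. Across probes, same-numbered arrays deviated together (r = 0.443), and with a replicate block 4672 probes and 10 of the genes around the ligands passed. E2f2 (adjusted p = 0.0340) and Pvr (0.0234) passed with the block and did not as reported. The Raet1e probe and the brighter Raet1a probe, well above background but low in intensity, moved most of the ligand probes with normexp, and the other Raet1a probe was not well above background.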
